A study of Mus musculus with 12 samples.

Results

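The genes described here are 10 genes of the kynurenine pathway and of nicotinamide adenine dinucleotide (NAD) synthesis, out of the 23420 genes of the count table. They were taken by name from a list of genes drawn up with earlier results of these data known, and all 10 have a row (Naprt under its older symbol, Naprt1). The low-count filter of edgeR kept 9 of them for testing, and Nnmt did not pass it. Afmid, Kmo, Kynu, Haao and Qprt encode enzymes on the way from tryptophan to NAD, and Acmsd encodes the enzyme of a branch that leaves that way. Nampt and Naprt encode the enzymes that start NAD synthesis from nicotinamide and from nicotinic acid, Nadk encodes a kinase that turns NAD into NADP, and Nnmt encodes an enzyme that methylates nicotinamide.

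RNA from pieces of 12 kidneys of male C57BL/6J mice was sequenced, each kidney's middle having gone to histology, with 4 control kidneys and 8 kidneys taken 24 h after renal ischemia. The question behind the design is what ischemia does to kidney transcripts, and whether anaesthesia during ischemia changes it. Control kidneys came from nephrectomy, and the ischemic kidneys had their vascular pedicle clamped for 20 min, a treatment that the labels give for the controls too. The mice were 8 to 15 weeks old by the methods, and none carried an engineered allele. For the ischemic kidneys, 2 fields of the labels give opposite treatments. In ischemia set A, 4 kidneys have titles that say anaesthetised and a group field that says conscious, and in ischemia set B, 4 kidneys have the reverse, so the sets are compared under these names and no direction is given to anaesthesia. The clamp was placed by surgery at least a day ahead, and conscious mice were briefly sedated with isoflurane when it was closed and opened. Surgery, sedation and ischemia cannot be told apart in a comparison with nephrectomy kidneys. Neither the labels nor the methods tie the kidneys to numbered animals, so a control and an ischemic kidney may share a mouse, and the p-values measure the spread between these kidneys.

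NAD carries electrons in energy metabolism and is used up by sirtuins and by poly(ADP-ribose) polymerases, so cells renew it all the time. They make it from tryptophan by the kynurenine pathway, from nicotinic acid, and by recycling nicotinamide. Liver and kidney are known for the tryptophan route, which in the kidney lies largely in the proximal tubule, a segment with a high demand for energy.

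Total counts per kidney lay between 15367342 and 44793350, and 3 counts, taken as the detection floor, corresponded to 0.067 to 0.195 CPM (the count scaled to the library total), for counting error only. Expression varied widely between kidneys of a group, with a common biological coefficient of variation of 0.762, and 1629 of the 11664 genes tested (14.0%) had no count in a control kidney and at least 30 counts in another. Kidney 4 of set B stood apart from the rest, with a score of 149 on the second principal component of log2 CPM (12.2% of the variance) against -41.4 to 25.6 for the other kidneys. Where a call of a named gene changes without it, both values are given. The tissue label was checked against markers. The 10 proximal tubule markers (among them Lrp2, Slc34a1 and Slc5a2) summed to between 6525 and 7365 CPM in the controls. In set A the sum was 699 to 1304 CPM, and in set B it was 448 to 1382 CPM. The 4 markers of injured tubule were all higher in both sets. Of the 4 haemoglobin genes listed only 2, Hba-a1 and Hba-a2, are in the table, and both were at 0 in all kidneys. With the other haemoglobin genes missing from the table, these zeros do not settle the blood content.

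Among the kynurenine genes, Haao and Acmsd fell in both sets. They encode the neighbouring enzymes at the point where the pathway branches. HAAO opens the ring of 3-hydroxyanthranilate, and its unstable product either closes by itself to quinolinate, the precursor of NAD, or is taken away by ACMSD, a decarboxylase that limits how much quinolinate is formed. The sequence upstream of the RefSeq start of Haao (GRCm38.p6) is shown because Haao had the smallest adjusted p of the members in both sets. It runs from 250 to 26 bases before the start, at chr17:83846816-83847040 on the minus strand, inside the longer gene span that GENCODE gives, since that annotation has a transcript starting further upstream. Capitals mark the reverse complement of AGGTCA, the core element bound by many nuclear receptors.
Haao: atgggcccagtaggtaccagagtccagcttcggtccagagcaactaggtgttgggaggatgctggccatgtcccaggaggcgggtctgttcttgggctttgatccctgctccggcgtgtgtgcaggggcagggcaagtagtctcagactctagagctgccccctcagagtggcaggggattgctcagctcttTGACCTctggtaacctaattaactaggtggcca
The element lies 58 to 53 bases before the start. AGGTCA, searched on both strands, is in 4607 of 32851 windows of all genes (14.0%) and, among the 6 members whose windows were searched, in those of Haao and Nampt. A match is a description of letters and not a binding site.

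Other motifs were searched on both strands in the 250 bases before the start, in 7 windows of these 6 members, since Nadk has alternative starts. TATAAA occurred in 12.4% of all windows, CAAAGTCCA (an HNF4A type) in 0.384%, TTCCNGGAA (a STAT type) in 0.913% and a site of the NF-kB type in 0.356%. The windows of the members held 0 of them, which says only that these letters are not there.

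Haao (chromosome 17, 83831156 to 83847963, minus strand, mm10) had 59.2, 57.2, 56.8 and 52.8 CPM in the 4 control kidneys, the narrowest relative spread of any member. The set A kidneys had 3.84, 7.38, 3.68 and 4.88 CPM, and the set B kidneys had 5.45, 0.807, 4.05 and 1.11 CPM. All 8 ischemic kidneys lay far below all 4 controls, and the lowest, kidney 2 of set B, still had 13 counts. The mean fell from 56.5 ± 2.70 CPM (SD, n = 4) to 4.94 ± 1.71 CPM in set A, a log2 fold change of -3.54 ± 0.47 (SE), or 11.7-fold lower (adjusted p = 1.1e-05, edgeR's quasi-likelihood F-test, Benjamini-Hochberg). It fell to 2.85 ± 2.27 CPM in set B, a log2 fold change of -4.30 ± 0.49, or 19.7-fold lower (adjusted p = 1.8e-06, edgeR). Without kidney 4 of set B the latter change was -4.03 on the log2 scale. Kidney pieces of mixed cells were sequenced, so fewer cells of a type and less RNA per cell cannot be told apart.

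Acmsd (chromosome 1, 127729413 to 127767978, plus strand) had 46.8, 33.9, 28.4 and 22.4 CPM in the controls. It had 0, 5.25, 3.39 and 1.01 CPM in set A and 4.01, 6.21, 4.00 and 4.62 CPM in set B. The groups did not overlap, and kidney 1 of set A had no count. The mean fell from 32.9 ± 10.4 CPM (SD, n = 4) to 2.41 ± 2.37 CPM in set A, a log2 fold change of -3.78 ± 0.78 (adjusted p = 0.00119, edgeR), or 13.8-fold lower. Without kidney 2 of set A this change was -4.47. In set B the mean fell to 4.71 ± 1.04 CPM, a log2 fold change of -2.82 ± 0.75 (adjusted p = 0.00902, edgeR), or 7.05-fold lower. An antisense gene, 2900009J06Rik, overlaps exons of Acmsd and was at 0 CPM in all kidneys.

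Proximal tubule markers moved with Haao and Acmsd. All 10 fell in set A, where their median log2 fold change was -2.94. In set B the median was -2.93, all 10 had log2 fold changes below 0, and 9 of them passed the test. Single markers ranged from -7.65 to -1.501 in set A and from -9.30 to -1.48 in set B, but the lower ends came from Slc22a30 and Slc7a13, which had at most 12.6 CPM in a control kidney and were at or under 3 counts in 7 and 6 of the 8 ischemic kidneys. The other 8 markers ranged from -3.55 to -1.501 in set A and from -3.53 to -1.48 in set B. Haao in set B (-4.30 ± 0.49) lay below these ranges and Acmsd in set B (-2.82) within them, while in set A both Haao (-3.54 ± 0.47) and Acmsd (-3.78 ± 0.78) lay within their SE of the lower end. The part of these cells in the fall of the members was not tested.

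**Figure D1:**
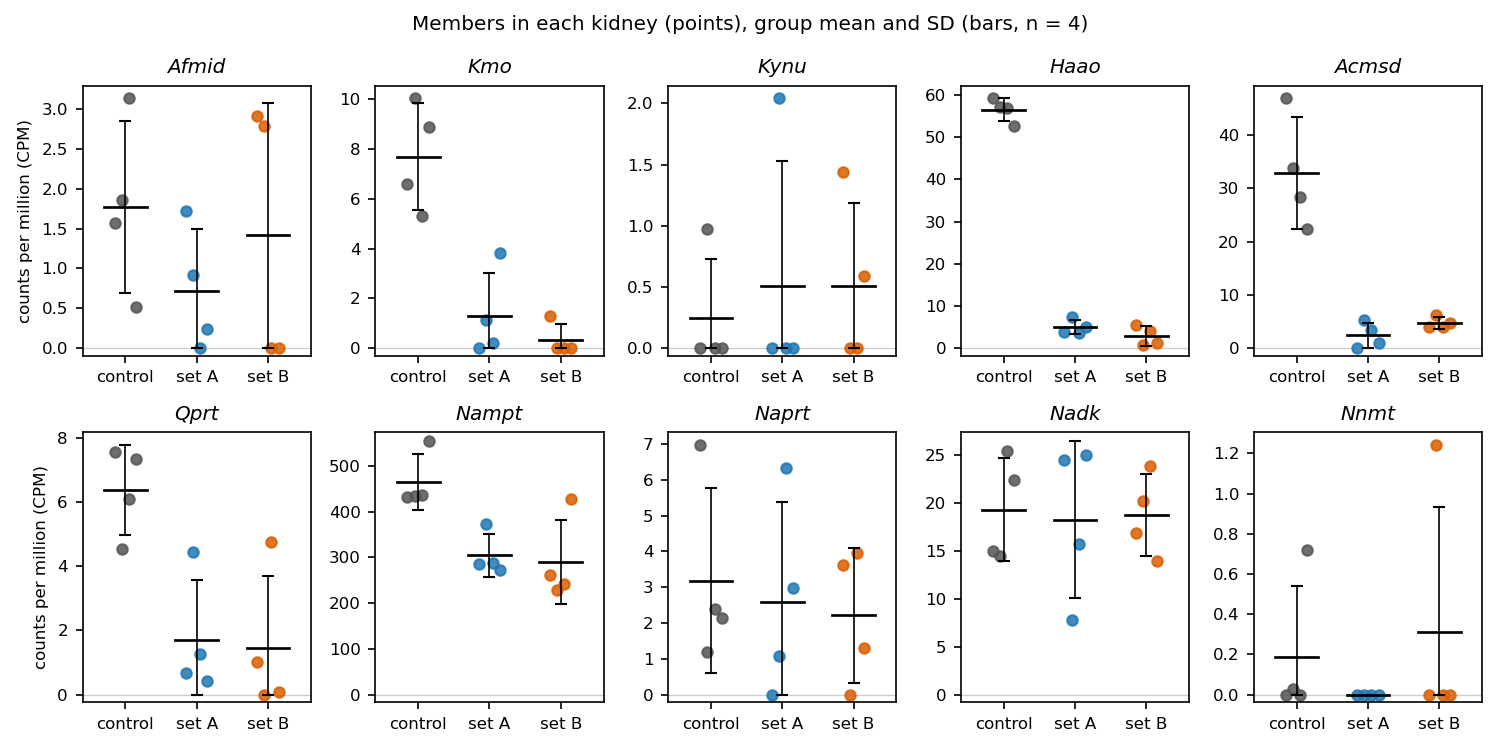
CPM of the 10 members in each of the 12 kidneys (points), with the group mean and SD (n = 4, bars, lower end stopped at 0) and a separate linear axis per gene. Haao, Acmsd, Kmo and Nampt have all ischemic kidneys below all controls, and Kynu and Nnmt are at 0 in most kidneys.

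Upstream of Haao, Kmo was low in ischemic kidneys but did not pass the test. KMO hydroxylates kynurenine and so directs it towards NAD. Kmo (chromosome 1, 175620381 to 175662116, plus strand) had 6.58, 10.04, 5.30 and 8.88 CPM in the controls. It had 0, 1.13, 0.223 and 3.81 CPM in set A and 1.304, 0, 0 and 0 CPM in set B. The lowest control lay above the highest ischemic kidney, and 3 of 4 kidneys of set B had no count. The log2 fold change was -2.60 ± 1.51 in set A (adjusted p = 0.269, edgeR) and -4.49 ± 1.65 in set B (adjusted p = 0.0579, edgeR). Single kidneys moved both values. Without kidney 4 of set A the change in set A was -4.16 (adjusted p = 0.122, edgeR), and without kidney 1 of set B, which leaves only kidneys with no count, the fitted value was -10.7, which is no bound on the fold. The exact two-sided permutation test gave p = 0.0286 for each set, the smallest that 4 against 4 kidneys allow. The set B value is close to the threshold of 0.05 and lies past it under some of the other settings given in the closing section. Fh1, on the opposite strand, overlaps the gene span but no exon of Kmo.

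AFMID removes the formyl group from formylkynurenine, the product of the entry step, and KYNU cleaves hydroxykynurenine to the substrate of HAAO. Afmid (chromosome 11, 117825924 to 117839908) had 1.57, 1.86, 3.14 and 0.513 CPM in the controls, 1.73, 0.912, 0 and 0.238 CPM in set A and 2.91, 2.79, 0 and 0 CPM in set B. The 3 groups overlapped, and the log2 fold changes were -1.33 ± 1.86 for set A and -0.31 ± 1.83 for set B. The adjusted p-values were 0.736 and 0.949 (edgeR). Afmid shares exon positions with Tk1 on the opposite strand and with Gm20708 on the same strand, and the strand setting of the counting is not given in the sources used here, so its counts are uncertain.

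Kynu (chromosome 2, 43555329 to 43682715) was at 0 in 8 of 12 kidneys. It reached 0.970 CPM in 1 control, 2.04 CPM in 1 kidney of set A, and 1.44 and 0.586 CPM in 2 kidneys of set B. With so few kidneys above 0, no difference was detectable at this depth, and the log2 fold changes of 0.999 ± 2.67 and 1.01 ± 2.67 (adjusted p = 0.880 and 0.871, edgeR) have wide errors.

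Qprt encodes the enzyme that joins quinolinate to a ribose phosphate and so closes the route from tryptophan. Qprt (chromosome 7, 127107114 to 127122226, minus strand) had 7.56, 4.52, 6.08 and 7.34 CPM in the controls. It had 0.671, 4.43, 1.27 and 0.416 CPM in set A and 1.003, 0, 4.74 and 0.0651 CPM in set B. Most ischemic kidneys were low, while kidney 2 of set A lay just under the lowest control and kidney 3 of set B lay above it. The log2 fold change was -1.94 ± 1.24 in set A (adjusted p = 0.327, edgeR) and -2.16 ± 1.25 in set B (adjusted p = 0.257, edgeR), and neither passed the test. Without kidney 2 of set A the change in set A was -3.03 (adjusted p = 0.161, edgeR), and without kidney 3 of set B the change in set B was -4.11 (adjusted p = 0.0461, edgeR), past the threshold. The exact two-sided permutation test gave p = 0.0286 for set A and p = 0.0571 for set B.

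Nampt was the most abundant member per length in every group and the only member of the routes from nicotinamide and nicotinic acid that fell. NAMPT makes nicotinamide mononucleotide and sets the pace of NAD recycling. Nampt (chromosome 12, 32819545 to 32853349, plus strand) had 432, 434, 436 and 555 CPM in the controls. It had 285, 373, 287 and 272 CPM in set A and 262, 228, 243 and 427 CPM in set B. The groups did not overlap, though kidney 4 of set B came close to the lowest control. The log2 fold change was -0.64 ± 0.17 in set A (adjusted p = 0.00979, edgeR), or 1.55-fold lower. It was -0.71 ± 0.17 in set B (adjusted p = 0.00443, edgeR), or 1.63-fold lower. Without kidney 4 of set B, the library that stood apart, the change in set B was -0.94 (adjusted p = 2.91e-05, edgeR).

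Naprt (chromosome 15, 75890956 to 75894481, minus strand), whose enzyme uses nicotinic acid, had 6.97, 1.20, 2.39 and 2.13 CPM in the controls, 0, 1.09, 6.34 and 2.97 CPM in set A, and 3.61, 0, 3.95 and 1.301 CPM in set B. High and low kidneys occurred in all groups, with log2 fold changes of -0.29 ± 1.38 and -0.52 ± 1.38 (adjusted p = 0.939 and 0.872, edgeR). Exons of Eef1d, on the same strand, overlap those of Naprt, and Eef1d had mean levels of 15.7, 21.1 and 13.8 CPM in controls, set A and set B, so reads of Naprt could be split or lost in counting.

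Nadk (chromosome 4, 155562378 to 155591001, plus strand) had 15.03, 14.5, 25.4 and 22.4 CPM in the controls, 24.5, 7.77, 15.7 and 24.98 CPM in set A, and 16.8, 20.2, 23.8 and 13.9 CPM in set B. The groups overlapped fully. The log2 fold change was -0.11 in set A (95% interval -0.92 to 0.70) and -0.07 in set B (95% interval -0.89 to 0.74). The adjusted p-values were 0.906 and 0.935 (edgeR).

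Nnmt (chromosome 9, 48591877 to 48605153, minus strand), whose enzyme takes nicotinamide out of NAD recycling, had 0, 1, 0 and 28 counts in the controls, no counts in set A, and 0, 20, 0 and 0 counts in set B. It was at or under the detection floor in 10 of 12 kidneys, so no fold is given. Among protein-coding genes, detection in these libraries depended on exon length. At least 1 CPM was reached in the controls by 11.1% of genes with up to 1000 exon bases, by 25.5% of those with 1000 to 2000 and by 80.8% of those with more than 10000, and Nnmt has 1576 exon bases.

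Levels of different members were compared per length, as CPM per kilobase of exon. In the controls Nampt was highest at 91.9 ± 11.97 CPM per kb (SD, n = 4), followed by Haao at 12.1 ± 0.577, Acmsd at 11.6 ± 3.69, Nadk at 5.15 ± 1.44, Qprt at 2.41 ± 0.528, Kmo at 1.63 ± 0.455, Naprt at 1.35 ± 1.10 and Afmid at 0.500 ± 0.305. Haao and Acmsd did not differ beyond their spread, nor did Qprt, Kmo and Naprt as neighbours in this order. After ischemia Nampt stayed highest, at 60.2 ± 9.21 for set A and 57.4 ± 18.4 for set B, and Nadk came second with 4.87 ± 2.18 and 4.99 ± 1.14 CPM per kb. Haao was at 1.06 ± 0.365 in set A and 0.609 ± 0.484 in set B, below Nadk in both. Acmsd was at 0.853 ± 0.836 for set A and 1.66 ± 0.368 for set B. The order of Naprt (1.11 ± 1.19 and 0.945 ± 0.806), Haao and Qprt (0.642 ± 0.702 and 0.549 ± 0.846) lay within their spread in both sets, as did the place of Acmsd among them in set A. In set B the kidneys of Acmsd (1.41 to 2.19) overlapped those of Naprt (up to 1.68) and Qprt (up to 1.79) but not those of Haao (up to 1.16).

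Over all members, 3 of the 9 tested fell in set A (Haao, Acmsd and Nampt), where 11.7% of all genes tested fell. The same 3 fell in set B, where 11.9% of all genes tested fell, and no member rose in either set. In set A 5 of 9 members (Qprt, Haao, Kmo, Acmsd and Nampt) had all ischemic kidneys below all controls, as had 15.2% of all genes tested. In set B this held for 4 of 9 (Haao, Kmo, Acmsd and Nampt) and for 14.7% of all genes. The median log2 fold change of the 9 was -1.33 for set A and -0.71 for set B, beside -0.02 over all genes in each. Both comparisons share the 4 control kidneys. Without kidney 4 of set B, 3 members were again called in set B, while Kmo (-4.09, adjusted p = 0.0866, edgeR) and Qprt (-1.77, adjusted p = 0.358, edgeR) were not. Kmo passed the low-count filter with all 4 controls but 2 kidneys of set A and 1 of set B above its limit of 0.401 CPM, so its presence among the tested members rests on the controls.

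**Figure D2:**
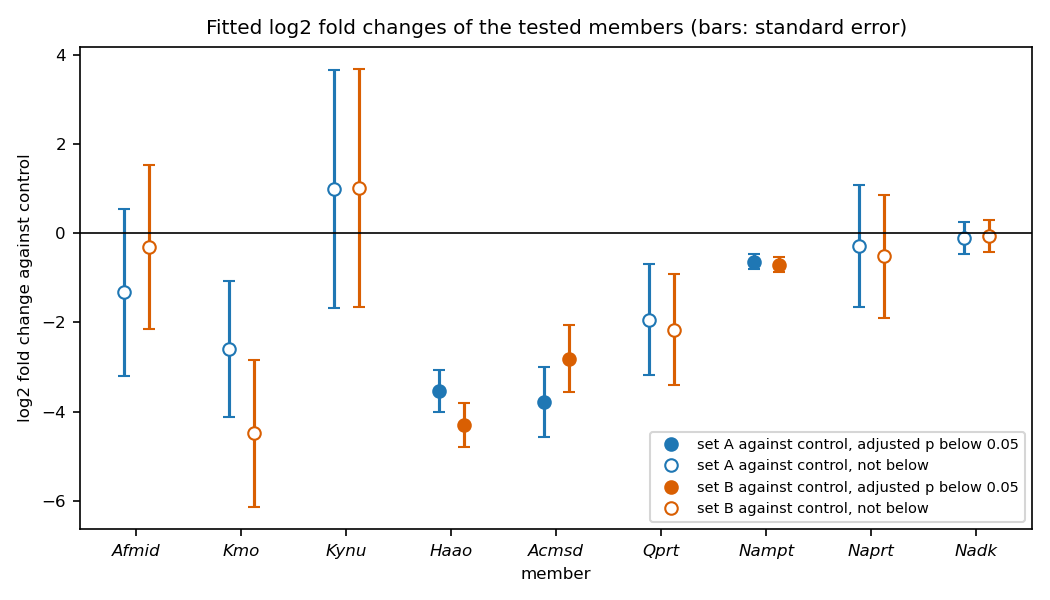
Fitted log2 fold change against control (vertical axis) of the 9 tested members, in set A and set B, with the standard error as bars. Filled points, with an adjusted p below 0.05, are Haao, Acmsd and Nampt in both sets, and Kynu, Afmid, Naprt and Kmo have standard errors above 1.3 log2 units.

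The sets were then compared with each other. Of the 9 tested members, 0 differed between set B and set A in edgeR (0 by DESeq2 and by limma-trend), where 0.00857% of all genes did. This was a single gene, Slc5a12, a carrier of lactate on the list of proximal tubule markers, named here after its values were seen, at 13.7 ± 3.34 CPM for set A and 49.2 ± 23.4 CPM for set B (SD, n = 4, adjusted p = 0.0328, edgeR, and 7.38e-04 without kidney 4 of set B). At an unadjusted p below 0.05 there were 0 members, beside 5.03% of all genes. No member had all kidneys of set B on 1 side of all kidneys of set A, as had 1.25% (lower) and 1.4% (higher) of all genes. The difference of set B from set A on the log2 scale was -0.76 for Haao (95% interval -1.76 to 0.24), 0.97 for Acmsd (-0.66 to 2.599) and -0.07 for Nampt (-0.46 to 0.31). It was -1.89 for Kmo (-5.28 to 1.498), -0.22 for Qprt (-2.95 to 2.499) and 0.04 for Nadk (-0.78 to 0.85). The intervals of Afmid, Kynu and Naprt spanned more than 6 log2 units each. Nampt and Nadk thus had the narrowest intervals, while for Kmo and Qprt even large differences were not detectable at this depth.

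Around the members, 66 other genes of NAD metabolism were listed, of which 65 are in the table and 51 were tested. In set A 15 fell and 2 rose (33.3% called, beside 22.3% of all genes), and in set B 15 fell and 3 rose (35.3%, beside 22.8%). The median log2 fold change was -0.75 for set A and -0.85 for set B. Between the sets 0 of the 51 differed in edgeR, with 5 at an unadjusted p below 0.05 and 0 by DESeq2 and by limma-trend.

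Upstream and beside the kynurenine enzymes, Tdo2 and Ido1, which encode tryptophan-oxidising entry enzymes, had no counts in any kidney, so their transcripts were not detectable at this depth. Ido2 had 132 and 32 counts in 2 controls and none elsewhere. Aadat, which encodes a transaminase that turns kynurenine into kynurenic acid, fell in set A from 14.6 ± 2.24 to 0.388 ± 0.663 CPM (SD, n = 4), with a log2 fold change of -5.22 ± 1.35 (adjusted p = 0.00751, edgeR). In set A 3 of 4 kidneys were at or under 3 counts of Aadat, and kidney 1 held 43 of the 46 counts, so the size of this fold is uncertain. In set B the change of Aadat, -2.72 ± 1.20, did not pass (adjusted p = 0.117, edgeR). The difference between the sets, 2.496 (95% interval -0.26 to 5.25), rests on the same few counts and did not pass either. The other transaminases, Kyat1 and Kyat3, had values of -1.69 and -1.62 in set A and -1.54 and -2.57 in set B, none past the threshold in edgeR. Kyat1 passed in set A without kidney 4 of set B (adjusted p = 0.00284, edgeR), and Kyat3 passed in set B under DESeq2 (adjusted p = 0.0374) and limma-trend (adjusted p = 0.0151). Of the 5 genes tested on this list, edgeR called 1 in set A and 0 in set B (3 at an unadjusted p under 0.05), DESeq2 called 1 in each, and limma-trend called 2 and 3. Over all genes tested edgeR called 22.3% for set A and 22.8% for set B.

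Among the other synthesis enzymes 1 of 6 tested fell in set A and 2 of 6 in set B, where 11.7% and 11.9% of all genes tested fell. Nadk2, the mitochondrial NAD kinase, fell from 47.7 ± 3.91 CPM to 19.4 ± 3.46 in set A and 20.4 ± 5.18 in set B, with log2 fold changes of -1.33 and -1.25 (adjusted p = 3.81e-04 and 6.98e-04, edgeR). Whether its response differed from that of Nadk, its cytosolic counterpart, was not tested. Nadsyn1, the NAD synthetase that works after both QPRT and NAPRT, fell in set B (-1.39 ± 0.41, adjusted p = 0.0178, edgeR) and had a value of -0.99 ± 0.41 in set A (adjusted p = 0.0923, edgeR).

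On the side of breakdown and methyl supply, 5 of 8 tested genes fell in each set. They were Nudt12, a hydrolase of NAD and NADH (-1.76 in set A and -2.17 in set B), Enpp3, an ectoenzyme that cleaves nucleotides (-2.53 and -1.84), Nt5e, the ectonucleotidase CD73 (-1.06 and -1.15), and Mat2a and Ahcy, which make and recycle the methyl donor cycle that NNMT draws on (-1.34 and -1.27, and -1.89 and -2.00). For Nt5e the ischemic and control kidneys overlapped. Of the 15 NAD-consuming enzymes tested, among them sirtuins and poly(ADP-ribose) polymerases, 0 passed in either set in edgeR. At an unadjusted p below 0.05 there were 0 in set A, beside 31.5% of all genes, and 2 in set B, beside 32.7%. DESeq2 called 1 and 0, and limma-trend called 1 and 0. Of the 15, 11 had log2 fold changes below 0 and 4 above 0 in each set. All set A kidneys lay below all controls for Sirt3 (mean 0.419 CPM against 3.85), as for 15.2% of all genes. All set B kidneys lay above all controls for Parp2 (mean 17.7 CPM against 13.3), as for 12.1% of all genes. The lack of a call therefore does not show that these enzymes were unchanged.

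Precursor transport gave 3 falls and 1 rise among 8 tested genes in each set. Of all genes tested 11.7% fell and 10.5% rose in set A, and 11.9% fell and 10.9% rose in set B. Slc5a8, which carries nicotinate and other monocarboxylates with sodium, fell from 148 ± 11.5 CPM to 6.60 ± 3.18 (set A) and 3.66 ± 1.26 (set B), with changes of -4.53 ± 0.33 and -5.34 ± 0.35 on the log2 scale (adjusted p = 6.1e-09 and 1.28e-09, edgeR). Slc6a19, a brush border carrier of neutral amino acids that include tryptophan, fell from 76.3 ± 4.92 CPM to 12.8 ± 7.24 and 21.3 ± 9.62 (-2.60 and -1.86). Slc7a8, another neutral amino acid carrier, fell too (-1.79 and -1.17). In contrast Slc7a5, which encodes a large neutral amino acid carrier, rose from 8.30 ± 3.87 CPM to 43.7 ± 25.4 for set A and 29.3 ± 6.74 for set B (2.38 and 1.80, adjusted p = 1.38e-04 and 0.00167, edgeR).

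Of the 9 regulators listed, 5 fell in each set, beside 11.7% of all genes tested for set A and 11.9% for set B. Ppargc1a, a coactivator known for driving the kidney's synthesis of NAD from tryptophan, fell in each set (log2 fold change -1.16 in set A, -0.85 in set B), as did its partner Esrra (-1.52, -1.31). Kidney 4 of set B overlapped the controls for both genes, with 366 CPM against a lowest control of 361 for Ppargc1a and 62.2 against 58.9 for Esrra, and without it the set B changes were -1.14 and -1.64. The tubule transcription factor Hnf4a (-1.37 and -1.58) fell as well. Stat3, a transducer of cytokine signals, rose by 1.47 and 1.52 (adjusted p = 8.58e-08 and 6.36e-08, edgeR). Nfe2l2, the regulator of antioxidant genes, rose in set B (1.13, adjusted p = 0.0161, edgeR) and had a value of 0.63 in set A (adjusted p = 0.199, edgeR).

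**Figure D3:**
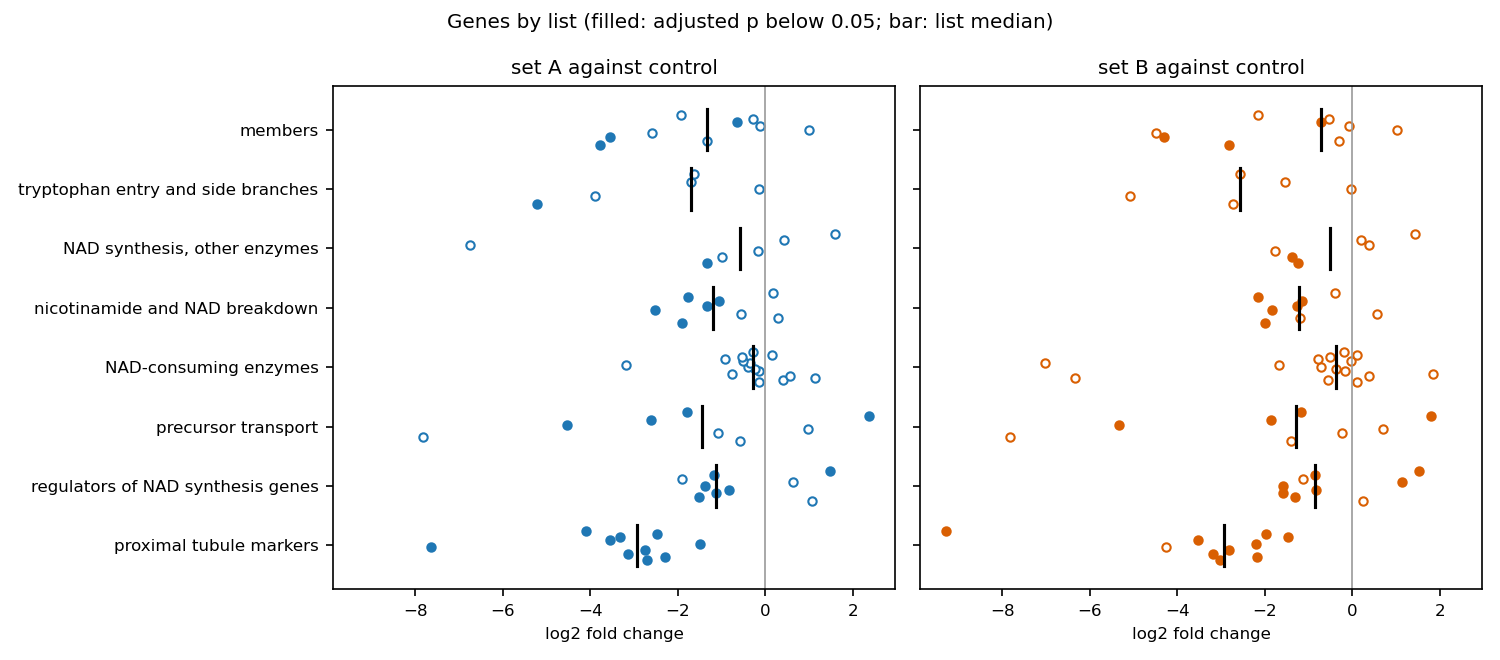
Log2 fold changes (horizontal axis) of the tested genes by list, set A on the left and set B on the right, each point a gene, filled where the adjusted p was below 0.05, with the list median as a bar. Proximal tubule markers have medians of -2.94 and -2.93, and the NAD-consuming enzymes have no filled point.

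**Figure D4:**
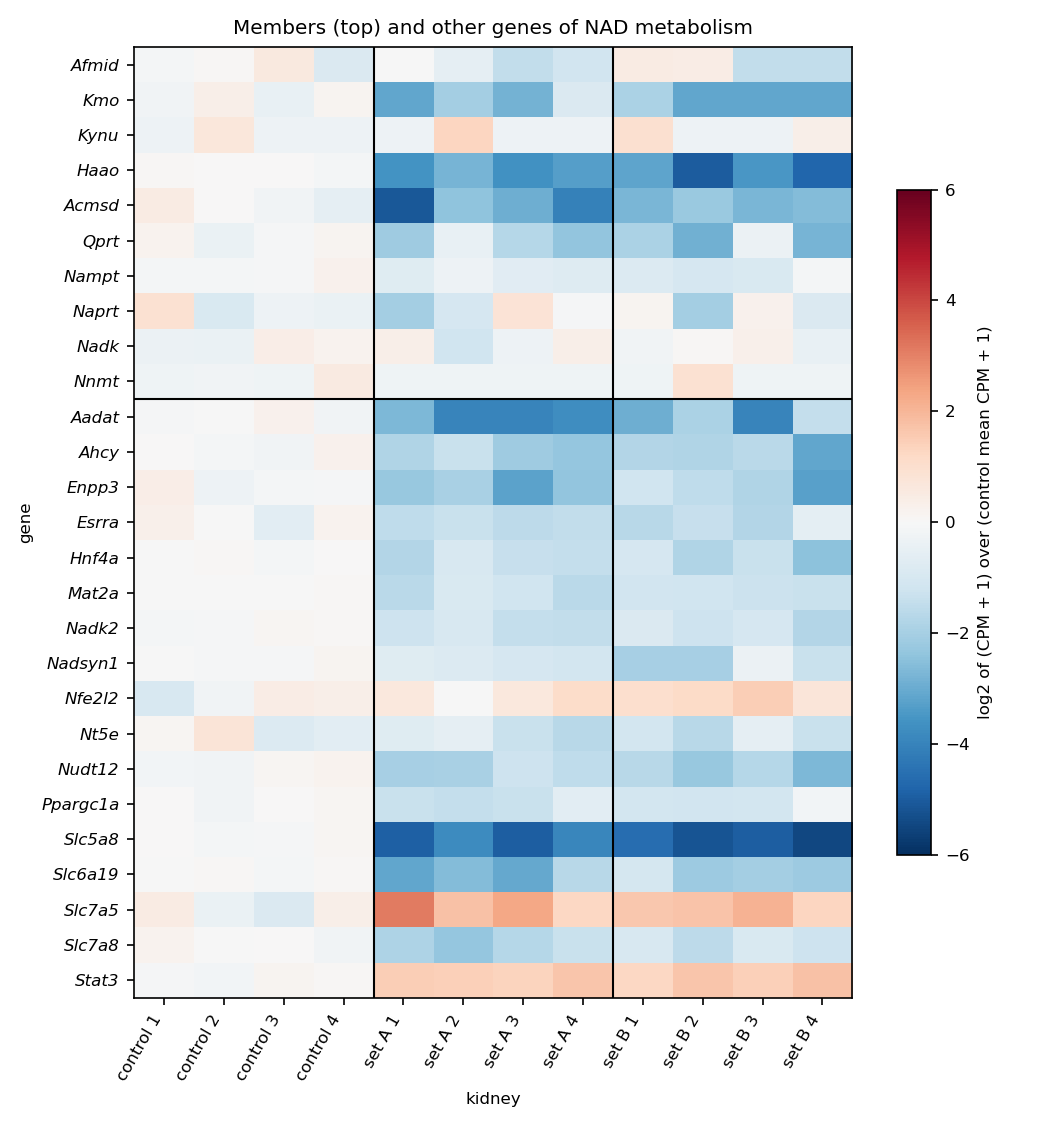
Log2 of (CPM + 1) over the control mean (CPM + 1), from blue below to red above control, for the 10 members (top) and 17 other genes of NAD metabolism that were called in either set, in the 12 kidneys (columns). Haao is blue in all 8 ischemic kidneys, while Nadk and Naprt have both colours within each set.

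Other cell types were looked at beside these results. Of 9 myeloid markers 8 are in the table and 5 were tested, and 1 of them (Csf1r) fell in each set. The list summed to 45.5 to 65.9 CPM in the controls, 12.3 to 30.6 for set A and 13.1 to 36.3 for set B, of which Csf1r had means of 51.3, 13.6 and 10.6 CPM. The median log2 fold change of all 5 tested was 0.38 for set A and 0.57 for set B, and 3 of them were above 0 in each set without a call. Ptprc, found on all leukocytes, had means of 2.92, 3.87 and 4.45 CPM in controls, set A and set B, and S100a8 was at 0 in all kidneys. The 5 lymphocyte markers summed to between 0.672 and 4.65 CPM in the controls and to 0 in the ischemic kidneys. Of the 6 endothelial and stromal markers 2 (the collagens Col1a1 and Col1a2) rose in each set, and the sum of the 6 was 522 to 661 CPM in the controls, 968 to 2709 for set A and 1201 to 2497 for set B, mostly Col1a1. The endothelial markers Kdr (40.5 CPM in the controls, 27.5 and 29.9 in the sets) and Pecam1 (0.885, 0.488 and 0.427 CPM) had log2 fold changes below 0, and Cdh5 (14.1, 19.1 and 15.6 CPM) had values above 0, with none of the 3 passing the test, and for Kdr all ischemic kidneys lay below all controls in each set. Without kidney 4 of set B, Kdr passed in set A (adjusted p = 0.0435, edgeR). The 4 liver markers summed to 16.3 to 23.2 CPM in the controls and to at most 7.90 CPM in an ischemic kidney. Most of this was Ttr, with means of 18.4, 3.60 and 1.47 CPM in controls, set A and set B. Alb had no count in the controls, and Apoa2 had none in any kidney. Of the 2 liver markers tested 1 was called lower in set B. The fat and adrenal markers summed to at most 3.70 CPM in any kidney. Of the 6 thick limb and distal nephron markers 2 (Slc12a1 and Calb1) fell in each set, and the other 4 were not called. Slc12a1 had means of 1495, 180 and 259 CPM in controls, set A and set B (log2 fold changes -3.07 and -2.56). Calb1 had means of 623, 186 and 154 CPM. The sum of the 6 was 2842 to 3480 CPM in the controls, 1152 to 1738 for set A and 1028 to 2071 for set B. The part of these cells in the members' changes was not tested.

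The genes whose log2 CPM ran most like that of a member over the 12 kidneys were Lrp4 and Chpt1 for Haao (Pearson's r = 0.97 for each), Uqcrc1 and G6pc for Acmsd (0.94 each), Suclg1 and Xkrx for Kmo (0.95 each), Fbxo40 and Acat2 for Qprt (0.94 and 0.93) and Ush1c and Acvr2b for Nampt (0.95 and 0.94). The members without a call gave Ppic for Afmid (0.94), Kcns3 for Kynu (0.95), Fbxl4 for Naprt (0.90) and Zfp646 for Nadk (0.90) as the first of each. The kidneys share their grouping into control and ischemic, so these values are a description of likeness over 12 kidneys only.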

How the data were processed

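The authors made stranded mRNA libraries, aligned single reads with STAR (mm10) and obtained a count per gene with HTSeq. The table the authors deposited holds raw counts. Versions, strand setting and annotation release are not given in the sources used here. Counts were analysed in edgeR 4.0.16 (R 4.3.3) with its low-count filter (minimum count 10, minimum total 15), TMM scaling and 1 fit of all 12 kidneys in 3 groups. Two-sided quasi-likelihood F-tests had Benjamini-Hochberg adjustment over 11664 genes and a threshold of 0.05, with 95% intervals on 9 residual degrees of freedom. CPM used the counted totals. All replicate pairs differed by more than sampling noise (chi-square per degree of freedom at least 48.9). Positions and exon lengths came from GENCODE M21, and sequences from RefSeq. The members and lists were chosen with earlier results of these data known. Named genes were all members, the other NAD genes called in either set (at most 20), and for each tested member the most correlated genes. Some genes and a sequence within these lists are not reported here. Alternatives were DESeq2 1.42.0, limma-trend (limma 3.58.1), other scalings and filters, fits restricted to the compared groups, a block for replicate number, and leaving out each kidney. The fit was also run on simulated counts, and the outcome is not reported here.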

Additional observations from a re-analysis of the deposited data

Results flagged for a closer look

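Within a group of 4 kidneys, the gap between the most extreme kidney and its nearest neighbour was divided by the range of the group, and a share above the 95% critical value of Dixon's test marks a kidney far from the others. Chance gives such a share in about 1 in 20 groups, and 29 combinations of a member and a group were examined, of which 7 passed. For Kynu the share was 1 in the controls and 1 in set A, since a single kidney in each had counts. For Kmo in set B it was 1, with counts only in kidney 1. Nampt had a share of 0.962 in the controls, where kidney 4 was highest at 555 CPM, and 0.845 in set A, where kidney 2 was highest at 373 CPM. Nnmt had a share of 0.964 in the controls, from kidney 4 with 28 counts, and 1 in set B, from kidney 2 with 20 counts.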

How the results depend on the processing

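Haao, Acmsd and Nampt stayed past the threshold in both sets under all 8 other settings and with any of the 12 kidneys left out. With a kidney left out, Haao ranged from -3.80 to -3.41 for set A and -4.86 to -4.02 for set B, Acmsd from -4.47 to -3.34 and -3.01 to -2.62, and Nampt from -0.75 to -0.53 and -0.94 to -0.62. The members called in set B were 3, and 5 under limma-trend, which added Kmo and Qprt. Kmo in set B (adjusted p = 0.0579, edgeR) also passed under DESeq2 (0.0130), with no low-count filter (0.0328), in a fit of only 2 groups (0.0340), and without kidney 1 of set A (0.0361) or of set B (0.00260). Qprt in set B passed without kidney 3 of set B (0.0461), and Kmo in set A under limma-trend (0.0409). Between the sets, the number of genes called was 1 in the main analysis, 29 in DESeq2, 6 with no filter, 0 with only 2 groups, 0 in limma-trend and 0 to 7 with a kidney left out, 7 without kidney 4 and 3 without kidney 2 of set B. The cause was not tested. With a kidney left out, directions turned only among values that had not passed: Kynu ranged from -5.78 to 6.72 in set A, -0.41 to 6.72 in set B and -1.38 to 6.80 between the sets, Naprt from -1.23 to 0.41, -0.96 to 0.17 and -0.65 to 0.70, and Nadk from -0.33 to 0.14, -0.22 to 0.080 and -0.22 to 0.23. Afmid in set B ranged from -0.93 to 0.12, and Qprt and Nampt between the sets from -2.16 to 0.86 and from -0.31 to 0.036. Under scaling by library size only, Kynu between the sets turned to -0.0026. Same-numbered kidneys did not deviate together (correlations -0.0554 to 0.0452, and 2 of 12 kidneys correlated best with their own number). The replicate number as a block left 3 members called in each set, with 2491 genes called in set A and 2531 in set B.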
